A study of Homo sapiens with 4 samples.

Results

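Cytosolic ribosomal protein genes were examined in RNA sequencing of MDA-MB-231 cells after knockdown of hTrmt13, with RPS13 set against the others. The members were the gene symbols formed of RPS, RPL or RPLP with a number and, in some, an added A, X or L, and they came to 83 of the 28930 symbols in the count table. Among them 31 symbols began with RPS, which names proteins of the small subunit, and 52 with RPL, which names those of the large subunit. No pseudogene symbol of these genes was among the rows, and 81 members had enough counts to be tested. The remaining members were RPL10L, with no count in any library, and RPL3L, with 2 counts in each knockdown library and none in the control libraries.

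MDA-MB-231 is an established human triple-negative breast cancer line with mesenchymal features. It was given an siRNA against hTrmt13 in the knockdown group (2 libraries) or a control siRNA in the control group (2 libraries). hTrmt13, encoded by TRMT13, methylates ribose in tRNA. All 4 libraries came from the same line without other labelled treatment, while siRNA sequences, doses and times were not given in the sources. The labels do not say whether replicates were separate cultures, so p-values measure only how far these samples differ, a spread that may be technical.

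Each cytosolic ribosome carries a single copy of most ribosomal proteins, and their genes are transcribed at high levels in dividing cells. Most of the mRNAs begin with a C followed by a run of pyrimidines, the terminal oligopyrimidine tract, through which mTOR and LARP1 control their translation. Some members have a paralogue with its own gene, such as RPL26L1 beside RPL26, whose protein can take the same place in the ribosome.

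Total counts ran from 9777267 to 13098985 per library, and 13022 genes entered the test. TRMT13 was lower in both knockdown libraries, with 3.52 and 4.79 CPM (read counts scaled to a common library size by the trimmed mean of M values, TMM) against 14.9 and 18.9 in control libraries (log2 fold change -2.02, SE 0.34, adjusted p = 0.0399 in edgeR's quasi-likelihood test with Benjamini-Hochberg adjustment). Summed CPM of 5 mesenchymal markers was 4102 and 4107 in knockdown libraries and 4262 and 4610 in control libraries. Log2 fold changes were positive for VIM (0.02) and LGALS1 (0.28) and negative for CD44 (-0.79), AXL (-0.72) and CAV1 (-0.23). CD44 and AXL were lower, and LGALS1 higher, in both knockdown libraries. None of these markers had an adjusted p under 0.05 in edgeR's test. Of 7 luminal markers, which summed to 938 and 806 CPM in knockdown and 1163 and 1051 CPM in control libraries, ESR1 and PGR were at 0. KRT8 (mean 543.9 CPM in knockdown, 661.9 CPM in control) and KRT18 (321.1 and 431.4 CPM) made up most of these sums. GATA3 (4.52 and 8.6 CPM), EPCAM (2.52 and 4.95 CPM) and CDH1 (0.048 and 0.039 CPM) were low. Blood markers summed to under 1 CPM in every library, with CD3E and HBB among those at 0. Endothelial markers summed to 0.0951 and 0.449 CPM in knockdown libraries and 7.31 and 4.80 CPM in control libraries. Most of the control sums came from 1 gene, CDH5, with 0 and 2 counts in knockdown and 63 and 49 counts in control libraries. Its log2 fold change was -5.78 (adjusted p = 0.0296 in edgeR's quasi-likelihood test). The part of the endothelial markers in the results was not tested.

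Sequences around the annotated starts of 3 members are given first, because these members carry the largest differences among the tested ones (RPS13 and RPL26L1) or are the near copy of one (RPL26). The stretches hold 60 bases before and 15 bases from the RefSeq start on GRCh38.p14, 5′ to 3′ on the strand of the gene. Capitals mark a run of at least 7 pyrimidines within 10 bases of the start. RPS13 lies at chr11:17077653-17077727 on the minus strand, RPL26 at chr17:8383179-8383253 on the minus strand and RPL26L1 at chr5:172958669-172958743 on the plus strand.
RPS13: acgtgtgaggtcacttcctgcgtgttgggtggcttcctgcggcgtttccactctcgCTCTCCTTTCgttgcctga
RPL26: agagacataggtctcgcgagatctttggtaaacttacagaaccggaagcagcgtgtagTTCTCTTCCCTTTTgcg
RPL26L1: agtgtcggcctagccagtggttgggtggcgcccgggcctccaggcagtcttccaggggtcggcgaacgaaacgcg

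RPS13 and RPL26 have such a run, and neither of the 2 RefSeq start windows of RPL26L1 has one. The run was found in 52 of 82 start windows of members (63.4%), against 14% of the 35116 start windows of all genes in the same reference. A start base C followed by 4 pyrimidines was found in 56.1% of member windows, against 4.07% of all windows. Windows were available for 66 members. The letters CCGGAAG, in the 250 bases before to 50 after the start on either strand, were present in 34.1% of member windows, against 10.3% of all windows. RPL26 has these letters in the stretch shown (ccggaag), and the RPS13 window has neither these letters nor AAGATGGC, which were present in 8.54% of member windows and 2.89% of all windows. Each match describes letters only and is not a measured site.

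RPS13, a protein of the small subunit platform that takes part in a contact with the large subunit, had the lowest log2 fold change of the members. Its libraries held 602 and 1439 counts in knockdown and 3608 and 5772 counts in control. After scaling, RPS13 stood at 57.2 and 107.8 CPM in knockdown libraries, against 376.6 and 446.5 CPM in control libraries. Both knockdown libraries were far under both control libraries, and the groups did not overlap. Mean levels were 82.5 ± 35.7 CPM in knockdown and 411.5 ± 49.4 CPM in control (SD, n = 2 each), and RPS13 fell 4.98-fold (log2 fold change -2.32, SE 0.34, adjusted p = 0.0317 in edgeR's quasi-likelihood test). Without each library in turn its log2 fold change lay between -2.85 and -1.93, and it was called each time. In these bulk samples, fewer cells expressing a gene and less RNA per cell cannot be told apart.

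Within the small subunit's own counts, RPS13 made up 0.277% and 0.502% in knockdown libraries, against 1.76% and 2.38% in control libraries. The 95% exact binomial intervals, which cover counting error only, ran from 0.255% to 0.299% and from 0.477% to 0.529% in knockdown, and from 1.70% to 1.82% and from 2.31% to 2.44% in control. Per kilobase of coding sequence, the RPS13 level was 182.1 CPM in knockdown and 908.4 CPM in control. That placed it at rank 74 of the members in knockdown and at rank 63 in control, counted from the highest level per kilobase. By this measure, which leaves out untranslated bases, RPS13 had a level in the lower part of the family in both groups.

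**Figure D1:**
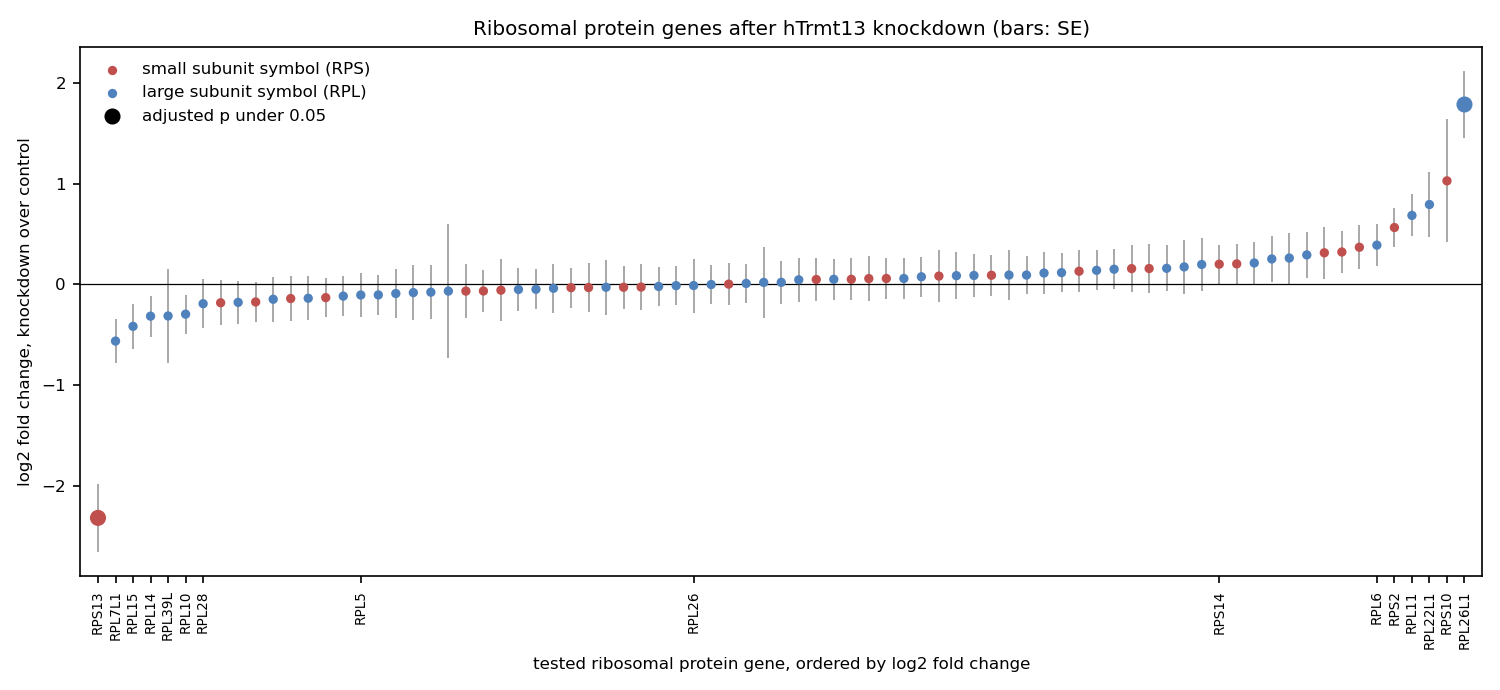
Log2 fold change of knockdown over control (vertical axis, bars are the SE of the fit) for 79 of the 81 tested ribosomal protein genes, ordered along the horizontal axis, with small subunit symbols in red and large subunit symbols in blue. RPS13 at -2.32 and RPL26L1 at 1.79 are the large points with an adjusted p under 0.05, and 72 of the 79 genes drawn lie within 0.5 of zero.

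Of the 81 tested members, 2 were called at an adjusted p under 0.05 in edgeR's quasi-likelihood test, RPS13 as lower and RPL26L1 as higher. This is 2.47% of the tested members, near the 2.99% called of all 13022 tested genes, of which 1.96% were lower and 1.03% higher in knockdown. DESeq2 called the same number of members, 2 of 81, while it called 8.55% of all genes with an adjusted p. An unadjusted p under 0.05 was reached by 6 members (7.41%), against 24% of all tested genes. Groups did not overlap for 21 members (25.9%), against 54.3% of all tested genes. Of these, 14 members were higher in both knockdown libraries, where 27.5% of all genes were, and 7 were lower in both, where 26.8% of all genes were.

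The log2 fold changes of the members lay close together. Their median was 0.02, with quartiles at -0.08 and 0.16, beside a median of 0.01 over all tested genes. Positive values were found for 44 members and negative ones for 37. Within 0.5 of zero were 91.4% of the members, against 59.1% of all tested genes and 72.9% of the 2339 genes that averaged 100 CPM or more. At that same level of at least 100 CPM, 69 of 73 members (94.5%) lay within 0.5. The SD of the log2 fold changes was 0.41 over the members and 0.24 without RPS13 and RPL26L1, against 0.81 over all genes and 0.52 over genes of at least 100 CPM. Median values were 0.05 for the 31 small subunit genes and 0.02 for the 50 tested large subunit genes. RPS13 stood 1.76 log2 units under the next lowest member, RPL7L1, and RPL26L1 stood 0.76 above the next highest, RPS10. The SE of a member's log2 fold change had a median of 0.22, and a value of 0.69 with an SE of 0.21 (RPL11) was not called. With the replicate number as a block in the fit, 9 of the 81 members were called, against 40.1% of all tested genes. The median of the members was -0.06 without control replicate 2, 0.15 without control replicate 1, and -0.09 once GC content and length were corrected for.

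RPL26L1 encodes a close paralogue of RPL26, a large subunit protein near the exit of the peptide tunnel. RPL26L1 had 430 and 571 counts in knockdown libraries and 83 and 200 counts in control libraries. Scaled, these were 40.9 and 42.8 CPM in knockdown, against 8.66 and 15.5 CPM in control. The knockdown libraries were alike and both above the control libraries, which lay further apart. RPL26L1 averaged 41.8 ± 1.33 CPM in knockdown and 12.1 ± 4.81 CPM in control (SD, n = 2 each), and it rose 3.45-fold (log2 fold change 1.79, SE 0.33, adjusted p = 0.0454 in edgeR's quasi-likelihood test). Without control replicate 1, its lowest library, the value was 1.44 and the adjusted p 0.056, so the call rested on that library, and over the 4 fits with a library left out the value lay between 1.44 and 2.27.

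RPL26 itself had 828.1 and 750.4 CPM in knockdown libraries and 981.2 and 609.8 CPM in control libraries, which overlapped (log2 fold change -0.01, SE 0.27, adjusted p = 0.985 in edgeR's quasi-likelihood test). RPL26L1 therefore made up 4.71% and 5.39% of the counts of the pair in knockdown libraries, against 0.875% and 2.47% in control libraries. Per kilobase of coding sequence RPL26L1 was at 96.2 CPM in knockdown and 27.8 CPM in control. RPL26 remained the far more abundant of the pair in each library.

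How well reads tell the pair apart can be read from their coding sequences, so the first 90 coding bases of each are shown, from the GENCODE v29 annotation of GRCh38, with differing bases in capitals.
RPL26: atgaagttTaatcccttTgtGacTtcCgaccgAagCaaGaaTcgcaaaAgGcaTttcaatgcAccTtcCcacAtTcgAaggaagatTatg
RPL26L1: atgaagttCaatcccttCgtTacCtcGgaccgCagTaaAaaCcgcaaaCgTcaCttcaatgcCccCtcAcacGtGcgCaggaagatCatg

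In this stretch 19 bases differ. Over the whole coding sequence, 435 bases in each gene, 69 bases differ (84.1% identity), and the longest identical run is 20 bases. No 50-base window of the RPL26L1 coding sequence occurs in RPL26. Copies elsewhere are closer, since 49.7% of the 50-base windows of RPL26L1 occur in another annotated gene, nearly all in the pseudogene RPL26P30. For RPS13, 33.9% of windows occur in another gene, mostly RPS13P2, and 52 members share more than RPS13 does. The sources do not say how reads that match several genes were counted.

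**Figure D2:**
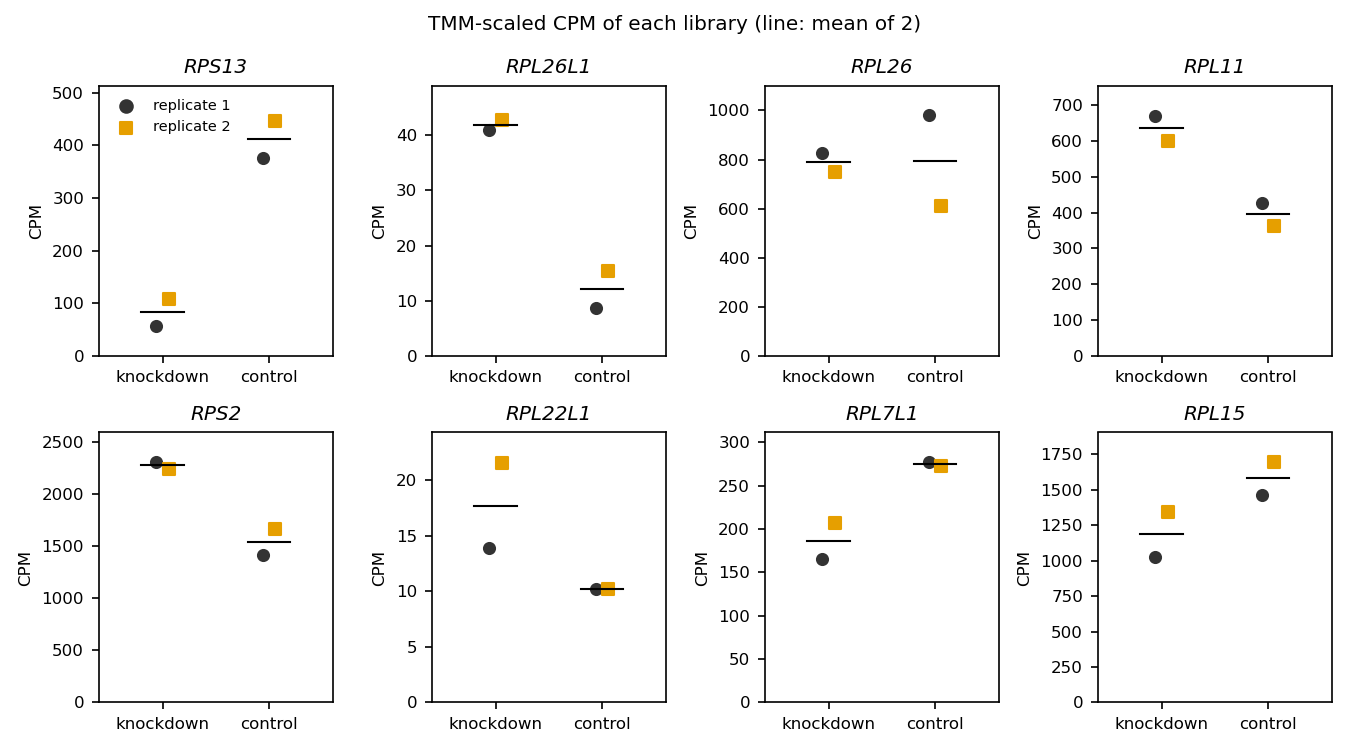
CPM in each of the 4 libraries (vertical axes from 0, each with its own scale; circles are replicate 1, squares are replicate 2, lines are means) for 8 members, knockdown left of control. RPS13 is lower in both knockdown libraries (57.2 and 107.8 CPM against 376.6 and 446.5 CPM in control), RPL26L1 is higher in both (40.9 and 42.8 CPM against 8.66 and 15.5 CPM), and RPL26 overlaps.

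Beside RPS13, the platform list held RPS3A, RPS7, RPS14, RPS15A, RPS26 and RPS27, other proteins assigned to that region. RPS13 was the 1 called member of these 7. Log2 fold changes of the other 6 lay between -0.07 and 0.37, and the list's median was 0.05, beside 0.01 over all genes. RPS14, which lies next to the mRNA exit channel, had 727.1 and 743.8 CPM in knockdown libraries and 615.6 and 663.7 CPM in control libraries (log2 fold change 0.20, adjusted p = 0.573 in edgeR's quasi-likelihood test). RPS26, which contacts mRNA upstream of the start codon, had 139.1 and 151.6 CPM in knockdown and 123.3 and 101.9 CPM in control (log2 fold change 0.37, adjusted p = 0.349). Both were higher in each knockdown library, and neither was called.

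The small subunit body list had 9 members, none called by edgeR or DESeq2, 1 with an unadjusted p under 0.05, and a median of -0.03. That 1 gene was RPS2, whose protein lies at the mRNA entry channel. RPS2 had 2312 and 2241 CPM in knockdown libraries and 1416 and 1661 CPM in control libraries, without overlap (log2 fold change 0.57, SE 0.20, adjusted p = 0.153 in edgeR's quasi-likelihood test). In the head list, none of 14 genes was called by edgeR or DESeq2 and none had an unadjusted p under 0.05. The head list's median was 0.11, beside 0.005 over all genes, with 10 positive and 4 negative values.

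RPS10, a head protein near the mRNA entry site, was low in these libraries and differed between replicates. RPS10 had 21.3 and 7.64 CPM in knockdown libraries and 10.2 and 4.02 CPM in control libraries. Replicate 1 was above replicate 2 in each group, and the groups overlapped (log2 fold change 1.03, SE 0.61, adjusted p = 0.354 in edgeR's quasi-likelihood test). Without control replicate 1 it was called (1.84, adjusted p = 0.0276), and without knockdown replicate 1 the value was 0.12. Every 50-base window of RPS10 occurs in another annotated gene, with 91.3% of them in RPS10-NUDT3, whose symbol joins RPS10 with NUDT3.

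**Figure D3:**
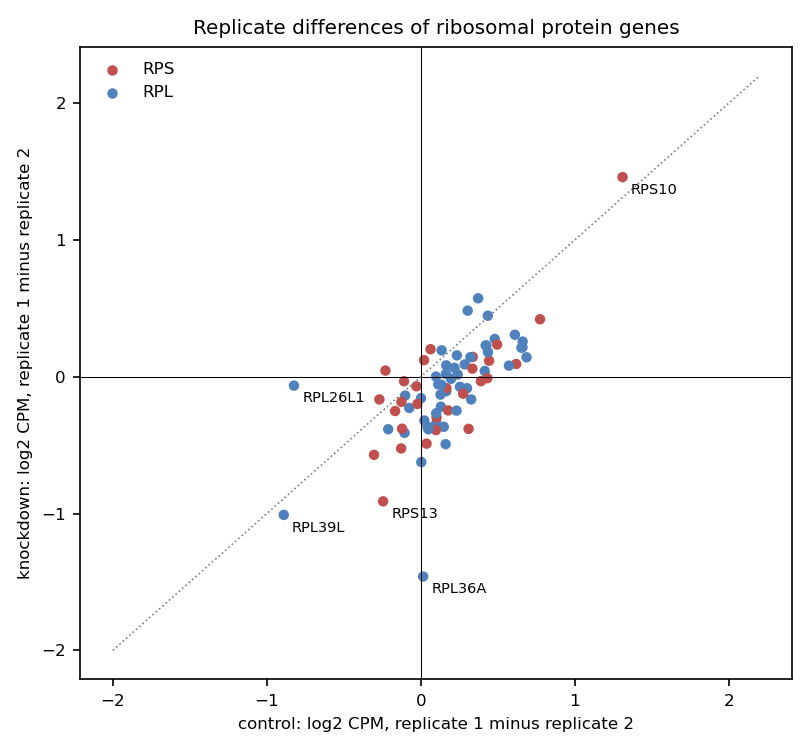
Difference of replicate 1 minus replicate 2 in log2 CPM, in knockdown (vertical axis) and in control (horizontal axis), for 79 of the 81 tested ribosomal protein genes, with the dotted line marking equal differences. RPS10 (1.46 in knockdown, 1.31 in control) stands apart, more than 2-fold higher in replicate 1 of both groups.

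Replicate differences ran the same way in both groups for 50 of the 81 tested members, with replicate 1 the higher in 34 and the lower in 16. Over all 13022 tested genes these differences correlated between the groups with r = 0.639. The same count was not taken over all genes, so it is not read as a trait of the members. The median absolute difference between replicates was 0.20 log2 units in knockdown and 0.23 in control for the members, against 0.36 in knockdown and 0.31 in control for all tested genes.

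Among large subunit genes, RPL5 and RPL11 encode the proteins that bind the 5S ribosomal RNA, and outside the ribosome this complex binds MDM2. RPL11 had 669.6 and 601.1 CPM in knockdown libraries, against 427.2 and 363.2 CPM in control libraries. The groups did not overlap, but the difference was not called (log2 fold change 0.69, SE 0.21, adjusted p = 0.116 in edgeR's quasi-likelihood test). RPL5 had 1418 and 1884 CPM in knockdown and 1710 and 1840 CPM in control, which overlapped (log2 fold change -0.11, adjusted p = 0.812). Thus the 2 partners had values of opposite sign, and neither was called.

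The stalk, which recruits translation factors to the large subunit, was covered by RPLP0, RPLP1, RPLP2 and RPL12. No stalk gene was called by edgeR or DESeq2, none had an unadjusted p under 0.05, and the log2 fold changes were 0.09 for RPLP0, -0.04 for RPLP1, 0.09 for RPLP2 and 0.20 for RPL12. RPLP0 had 2696 and 2801 CPM in knockdown libraries and 2678 and 2476 CPM in control libraries.

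RPL7L1, a relative of RPL7 with a role in making the large subunit, had the second lowest value of the members. RPL7L1 had 165.8 and 207.0 CPM in knockdown libraries and 277.5 and 273.1 CPM in control libraries, without overlap (log2 fold change -0.56, SE 0.22, adjusted p = 0.177 in edgeR's quasi-likelihood test). RPL15 followed at -0.42 (adjusted p = 0.309), with 1029 and 1343 CPM in knockdown and 1466 and 1698 CPM in control. RPL14 stood at -0.32, RPL39L at -0.31, RPL10 at -0.30 and RPL28 at -0.19, none of them called. RPL6 was on the other side at 0.39 (adjusted p = 0.301), with 953.4 and 1147 CPM in knockdown and 829.4 and 774.0 CPM in control.

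Of the paralogue rows, 8 were listed, 7 were in the table and 5 were tested, with RPL26L1 called higher and a median log2 fold change of -0.03. Values ran from -0.56 to 1.79. An unadjusted p under 0.05 in edgeR's test was reached by 3 of the 5 (RPL26L1, RPL7L1 and RPL22L1), against 24% of all tested genes. RPL22L1, whose parent gene RPL22 encodes a protein that mice can live without, had 13.9 and 21.5 CPM in knockdown and 10.2 and 10.2 CPM in control. It was higher in both knockdown libraries without a call (log2 fold change 0.79, SE 0.32, adjusted p = 0.198 in edgeR's quasi-likelihood test). RPS27L had 42.9 and 55.9 CPM in knockdown and 48.3 and 52.6 CPM in control (log2 fold change -0.03). RPL39L had 5.23 and 10.7 CPM in knockdown and 6.89 and 12.9 CPM in control, which overlapped.

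By level per kilobase of coding sequence, the highest members were RPL41 (5028 CPM in knockdown, 5127 in control), RPS18 (3717 in knockdown, 3393 in control), RPL13A (3468 in knockdown, 3103 in control) and RPL32 (3242 in knockdown, 3114 in control). The divisor leaves out untranslated bases, so it favours members with a short coding sequence, such as RPL41 with 75 coding bases. Without it, RPL41 averaged 377.1 CPM in knockdown and 384.5 CPM in control, under RPL4 with 2631 and 2851 CPM. At the other end per kilobase, RPL36A held 4 and 18 counts in knockdown libraries and 9 and 12 counts in control libraries. RPL17 stood at 4.09 and 5.32 CPM in knockdown and 4.91 and 4.41 CPM in control. All of its 50-base windows occur in the annotated gene RPL17-C18orf32, whose symbol joins RPL17 with C18orf32. For 9 members all windows were shared, and for 16 under 5% were. The 9 included RPL41 and RPS3A (mean 1339 CPM in knockdown, 1294 CPM in control) as well as RPL17, so fully shared rows were not all low. The level of a shared row may depend on where the counting placed shared reads, which was not tested.

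**Figure D4:**
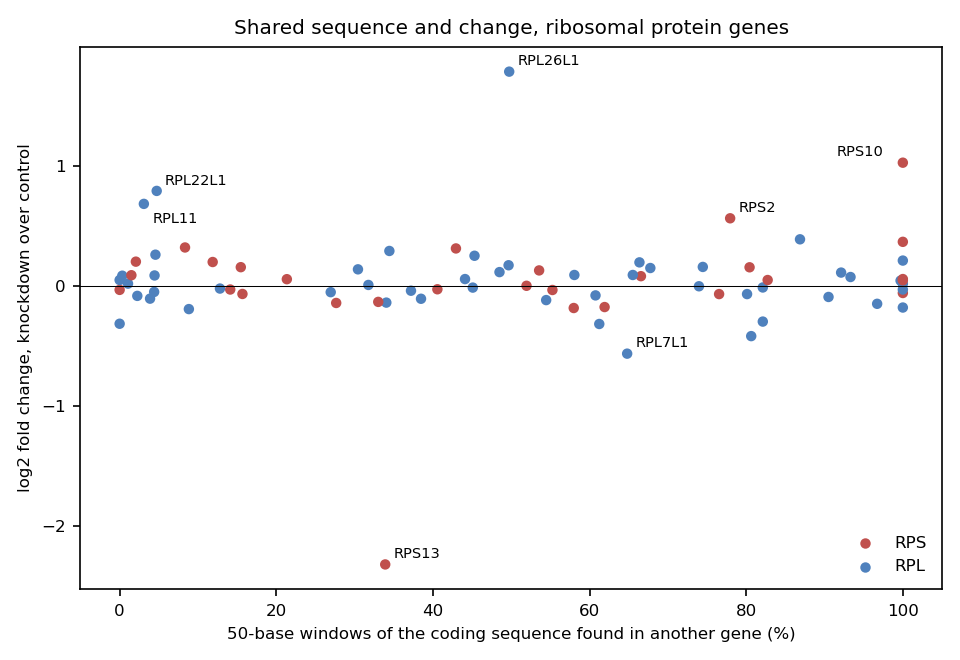
Log2 fold change of knockdown over control (vertical axis) against the percent of 50-base windows of the coding sequence that occur in another annotated gene (horizontal axis) for 79 of the 81 tested ribosomal protein genes, small subunit in red and large subunit in blue. RPS13 lies at 33.9% and RPL26L1 at 49.7%, and RPL11 (3.09%) and RPL22L1 (4.73%) share little.

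The median did not move one way with the amount of shared sequence. The median log2 fold change was 0.05 for the 22 members with up to 25% of windows shared, -0.01 for the 19 members up to 50%, 0.00 for the 16 members up to 75% and 0.05 for the 24 members above that, given as a description.

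All members together took 5.87% and 6.14% of the counts in knockdown libraries and 6.09% and 5.47% in control libraries. Without RPS13 they took 5.86% and 6.13% in knockdown, against 6.05% and 5.42% in control, and the groups overlapped. The mean share without RPS13 was 5.996% ± 0.190 in knockdown and 5.74% ± 0.447 in control (SD, n = 2 each), a difference of 0.259 percentage points (exact two-sided permutation test, p = 0.667, where the smallest p this design allows is 0.333). Without control replicate 2 the difference was -0.0569 and without control replicate 1 it was 0.576. Small subunit genes took 2.05% and 2.19% in knockdown and 2.10% and 1.89% in control, and large subunit genes 3.82% and 3.95% in knockdown and 3.99% and 3.57% in control.

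Ribosomal protein genes whose symbols follow another pattern were read as well. FAU, which encodes RPS30 fused to a ubiquitin-like protein, had 254.0 and 242.9 CPM in knockdown libraries and 165.6 and 191.3 CPM in control libraries (log2 fold change 0.48, adjusted p = 0.219 in edgeR's quasi-likelihood test). RPSA stood at 0.23, RPL36AL at 0.14 and the RACK1 gene, listed as GNB2L1, at -0.09. None of the 5 tested genes of this list was called by edgeR or DESeq2 or had an unadjusted p under 0.05. Elongation factors and other mRNAs with a terminal oligopyrimidine tract, 22 genes, had a median of 0.11, beside 0.005 over all genes. They had 15 positive values, no call by edgeR or DESeq2 and no unadjusted p under 0.05. Largest among them was EIF3F, at 0.62 (adjusted p = 0.224).

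Of 19 tested genes that regulate such mRNAs, edgeR called none and 2 had an unadjusted p under 0.05, both called lower by DESeq2. TSC1, an inhibitor of mTOR complex 1, had 59.1 and 54.0 CPM in knockdown libraries and 129.0 and 97.5 CPM in control libraries (log2 fold change -1.002, SE 0.24, adjusted p = 0.0713 in edgeR's quasi-likelihood test). EIF4EBP2, a repressor of cap-dependent translation, had 128.3 and 141.3 CPM in knockdown and 236.7 and 238.2 CPM in control (log2 fold change -0.82, SE 0.20, adjusted p = 0.0769). LARP1 stood at 0.47 (adjusted p = 0.233). The list's median was 0.01, beside 0.01 over all genes.

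Chaperones and importers of ribosomal proteins, 17 genes, had 15 positive values and a median of 0.25. Over all 13022 tested genes, 6557 values were positive and the median was 0.005. No gene of the list was called by edgeR or DESeq2. In edgeR's test 2 of the 17 had an unadjusted p under 0.05, against 24% of all tested genes. TSR2, the chaperone of RPS26, had 27.8 and 22.3 CPM in knockdown libraries and 13.8 and 16.2 CPM in control libraries (log2 fold change 0.74, SE 0.27, adjusted p = 0.169 in edgeR's quasi-likelihood test). RPS19BP1, which binds RPS19, had 130.5 and 108.2 CPM in knockdown and 62.9 and 81.1 CPM in control (log2 fold change 0.73, adjusted p = 0.135).

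Genes beside RPS13 on chromosome 11 were read in the order of the RefSeq annotation. PLEKHA7, an adherens junction protein gene, had 7.99 and 3.97 CPM in knockdown libraries and 23.8 and 16.9 CPM in control libraries, without overlap (log2 fold change -1.77, SE 0.42, adjusted p = 0.0694 in edgeR's quasi-likelihood test). It was not called there, but DESeq2 called it lower (log2 fold change -1.78, adjusted p = 0.00287), and so did 5 of the other alternatives. NUCB2 stood at -0.68 (adjusted p = 0.206), PIK3C2A at -0.44 (adjusted p = 0.508) and C11orf58 at 0.12 (adjusted p = 0.795). None of the 4 neighbours was called by edgeR's test as reported, and PLEKHA7 was the 1 neighbour that DESeq2 called. NUCB2, with 26.6 and 41.3 CPM in knockdown and 52.3 and 56.5 CPM in control, did not overlap between groups.

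Likeness of pattern to RPS13 was measured over the 4 libraries. After centring the log2 CPM of each gene, the root mean squared distance to RPS13 was 0.93 for RPL7L1, 0.996 for RPL15, 1.05 for RPL39L, 1.08 for RPL10 and 1.09 for RPL14, the 5 nearest members. In the whole table, among 10852 genes that averaged 5 CPM or more, the nearest were ANO6 (0.10), PARD6B (0.11), LMX1B (0.15), MEST (0.16) and RCOR1 (0.16). ANO6, a phospholipid scramblase, had 17.7 and 31.8 CPM in knockdown libraries and 107.2 and 115.3 CPM in control libraries (log2 fold change -2.16, adjusted p = 0.0341 in edgeR's quasi-likelihood test). All 5 were called lower in knockdown, a direction fixed by choosing them for likeness to RPS13 in the same libraries.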

How the data were processed

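The authors deposited a table of raw counts, 1 row a gene symbol, whose whole numbers add up to a different total in each library. Per the labels' protocols, Trizol-extracted total RNA went into Illumina TruSeq libraries. Per the submitters' processing notes, cutadapt, STAR 2.5.2b, HTSeq 0.6.1 and limma were used with hg19 or GRCh37. Annotation, strand setting and the treatment of reads matching several genes were not given in the sources, so near-identical copies and overlapping genes may lose or share reads.

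Groups came from the labels. The test was that of edgeR 4.0.16 under R 4.3.3 (TMM scaling, filterByExpr with a minimum count of 10 and a minimum total of 15, quasi-likelihood test, group as the only term), with Benjamini-Hochberg adjustment over all tested genes. An adjusted p under 0.05 was a call. CPM values are TMM-scaled, and SEs were derived from the F statistic. The fit was tested on simulated data. The common biological coefficient of variation was 0.246, and 1 CPM rests on about 10 to 13 counts. Library totals set the precision of shares, given with 95% exact binomial intervals.

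Coding lengths and shared 50-base windows (exact matches, either strand) came from GENCODE v29 on GRCh38, and start sequences from RefSeq on GRCh38.p14. These builds differ from that of the counts and were used only for sequence.

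Members and gene lists were chosen with earlier results of these data known. Genes named were TRMT13, RPS13 and its 2 neighbours on either side, called members, the 8 highest and 8 lowest members by log2 fold change, the 6 most abundant, paralogues, stalk and 5S-bound genes, up to 4 per further list by p, and the 5 nearest to RPS13 in pattern. RPS14, RPL17, RPL26, RPL32, RPL36A and RPL41, and other genes named outside that rule, were chosen after their values were seen. A few genes under that rule are not reported here.

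Alternatives were other scalings, other filters, DESeq2 1.42.0, a replicate block, a GC and length correction (mgcv 1.9.3) and leaving out each library.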

Additional observations from a re-analysis of the deposited data

How the results depend on the processing

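RPS13 was called lower under each alternative run, and its log2 fold change ran from -2.85 to -1.93 when 1 library was left out. The number of all genes called, 389 with 134 higher and 255 lower, became 1949 without a filter (826 higher, 1123 lower), 1130 with DESeq2 (457 higher, 673 lower), 1715 with the GC and length correction (899 higher, 816 lower, of 12534 genes) and 678 to 935 without 1 library, where the lone sample of a group is assumed to vary like the other group. With the replicate number as a block, 5227 genes were called (2517 higher, 2710 lower, 40.1% of those tested), among them 9 members, including RPL11, RPL22L1, RPL26L1, RPS2 and RPS10 as higher and RPL7L1, RPL15 and RPS13 as lower. Deviations of same-numbered libraries correlated with r = 0.639 across 13022 genes, and the labels do not say whether replicates were independent. In each of the 2 pairs the libraries share a replicate number and have neighbouring codes in their titles. The labels do not say what these codes mark, and a shared batch was not tested. Called members numbered 2 to 3 without 1 library, the 3 without control replicate 1 including RPS10 and RPS13. The members' median was -0.093 with the GC and length correction, where that of all genes was 0.035, and -0.064 to 0.147 without 1 library. The difference in share of counts ran from -0.0569 to 0.576 without 1 library. Among uncalled single genes the sign turned for RPL3 with library size alone (0.007), and with the GC and length correction for RPL36AL (-0.062), RPLP0 (-0.007), RPLP2 (-0.017), RPL12 (-0.009) and RPS27L (0.062). Leaving out 1 library gave both signs for RPL39L (-0.926 to 0.217), RPL5 (-0.323 to 0.093), RPL3 (-0.082 to 0.063), RPLP1 (-0.294 to 0.184), RPLP2 (-0.111 to 0.318), RPS27L (-0.234 to 0.154), RPL28 (-0.412 to 0.072), RPL13A (-0.036 to 0.389), RPL12 (-0.092 to 0.564), C11orf58 (-0.096 to 0.323), RPSA (-0.146 to 0.534) and GNB2L1 (-0.198 to 0.03). RPL26L1 without control replicate 1 was at 1.44 (adjusted p = 0.056 in edgeR). Of the values for single genes, 515 kept direction and side of the threshold and 36 gained a call, 21 of them with the replicate block. The other 15 were for PLEKHA7, TSC1 and EIF4EBP2 without a filter, with DESeq2 and with the GC and length correction, NUCB2 with that correction, PLEKHA7, TSC1 and BCCIP without knockdown replicate 1, RPS10 without control replicate 1 and PLEKHA7 without control replicate 2. The causes were not tested. Alternatives that add pseudogene rows to RPS13 or to the members were not run, because the table has 0 such rows.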
